A study of Mus musculus with 24 samples.

Results

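The Z-disc genes *Actn2*, *Actn3*, *Ldb3*, *Myoz1*, *Myoz2*, *Myot*, *Tcap*, *Csrp3*, *Flnc* and *Ankrd2* were followed in mouse *M. gastrocnemius* after 6 h of mild hypoxia. All non-control probes that the array design assigns to these 10 names were taken, which gave 12 of 55681 probes. The muscle came from male C57BL/6JOlaHsd mice that arrived at 10 weeks of age, ate a low-fat diet (10% of energy from fat) for 3 weeks and a diet with 40% of energy from fat for 6 weeks, and were exposed in a fasted state. The 12 Norm mice breathed 20.9% oxygen and the 12 Hypox mice 12% oxygen at normal air pressure. On each of 24 2-colour arrays a single muscle was labelled with Cy5 and hybridised beside a Cy3-labelled pool made from every sample, so each value below is a log2 ratio of a muscle to that pool, and ± marks the SD over the 12 arrays of a group. The whole muscle was ground, which means that fast and slow fibres and the cells between them were measured together. In such samples, fewer cells of a type and less RNA per cell cannot be told apart.

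The Z-disc is the protein lattice at the end of each sarcomere, where the actin filaments of neighbouring sarcomeres are crosslinked and titin is anchored. Alpha-actinin forms the crosslinks, filamin C and PDZ-LIM proteins tie the lattice to the membrane and to signalling enzymes, and calsarcins hold calcineurin there. Some Z-disc proteins, such as muscle LIM protein and the muscle ankyrin repeat proteins, also move to the nucleus and are known as sensors of stretch and load. Several members are known to be made mainly in fast or mainly in slow fibres.

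The probes of 5 members are shown first, because a single 60-base probe stands for most of these genes. *Actn2* and *Actn3* encode closely related proteins, and their probes were read against each other to see whether they could tell the transcripts apart. The last 19 bases of the *Actn2* probe line up with the first 19 bases of the *Actn3* probe without a gap, and 13 of them are identical (68.4%). The capitals mark the identical bases in that stretch, and the other 41 bases of each probe have no counterpart in the other. Coordinates are those of mm9, and sequences are printed as the array design gives them.
Actn2, chr13:12364990-12367362, minus strand: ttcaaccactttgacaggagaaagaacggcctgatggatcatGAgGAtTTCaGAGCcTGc
Actn3, chr19:4861727-4862212, minus strand: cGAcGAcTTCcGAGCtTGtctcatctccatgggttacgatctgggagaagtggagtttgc

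The probes of *Csrp3*, *Myoz2* and *Ankrd2* are shown because these genes had the lowest values of all arrays in the same mouse.
Csrp3, chr7:56086063-56087977, minus strand: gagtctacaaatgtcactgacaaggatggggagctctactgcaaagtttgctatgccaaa
Myoz2, chr3:122709486-122716527, minus strand: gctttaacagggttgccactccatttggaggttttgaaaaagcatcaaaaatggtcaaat
Ankrd2, chr19:42118566-42118625, plus strand: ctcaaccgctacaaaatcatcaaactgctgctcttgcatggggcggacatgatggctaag

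The *Actn2*, *Actn3*, *Myoz2* and *Csrp3* probes cover 2373, 486, 7042 and 1915 bases of the genome, so each crosses at least 1 intron and reads spliced RNA. Read from its first base, each of the 5 printed probes gives 20 codons without a stop. Whether that is the reading frame of the protein was not looked up. The probes of the other members lie within 60 bases of genome at chr14:35374689-35374748 and chr14:35340222-35340281 (*Ldb3*), chr14:21468483-21468542 (*Myoz1*), chr18:44515213-44515272 (*Myot*), chr11:98246127-98246186 (*Tcap*) and chr6:29411790-29411849 (*Flnc*). The second *Actn2* probe, designed on a cDNA clone at chr13:12400548-12400607, reached on average 1.17 times the local background in Cy5 and was not well above background on any of the 24 arrays. It was left out, and 11 probes for all 10 genes went into the tests.

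Each of the 6 slides held 4 arrays, 2 of either group. Brightness differed mostly between slides, since the mean Cy5 signal was between 58.3 and 102 on slide 1 and between 645 and 1014 on slide 6. Of the muscle fibre markers, *Acta1* was on average at 2130 times and *Mb* at 1120 times the local background. Of the cardiac markers, *Nppa* and *Myl7* did not reach 2 times the background, while *Myh6* was at 2.72 times. The number of arrays, 12 per group, limits the precision of every difference below.

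The Z-disc genes as a set showed no common direction and little change beyond the spread between arrays. Of the 11 probes, 6 were higher and 5 lower in Hypox, beside 56.7% of all 14312 probes tested that were higher. A single probe, that of *Myot*, passed P < 0.05 without adjustment (limma's moderated test), beside 14.1% of all probes, and it was lower, beside 6.57% of all probes that passed as lower and 7.48% that passed as higher. No member passed after Benjamini-Hochberg adjustment over all probes, where 0.999% of the probes did, and the smallest adjusted p was 0.240. The median difference was 0.13 on the log2 scale, beside 0.02 for all probes. In size, regardless of direction, the median difference was 0.235 and that of all probes 0.0945. The members also varied more between Norm arrays, with a median SD of 0.512 beside 0.222 for all probes. This spread holds slides as well as mice, since slides accounted for up to 84.3% of the variance within groups (*Tcap*). The member probes were also brighter, at a median of 68.9 times the local background beside 6.15 for all probes. With median centring in place of loess, and in the deposited values, all 11 probes were higher, beside 94.8% and 64.0% of all probes, so the negative signs given below for *Actn3*, *Flnc*, *Myoz1*, *Myot* and *Tcap* hold for the loess ratios and not for these 2 scalings. The plot of values by array shows both the overlap of the groups and this spread.

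**Figure D1:**
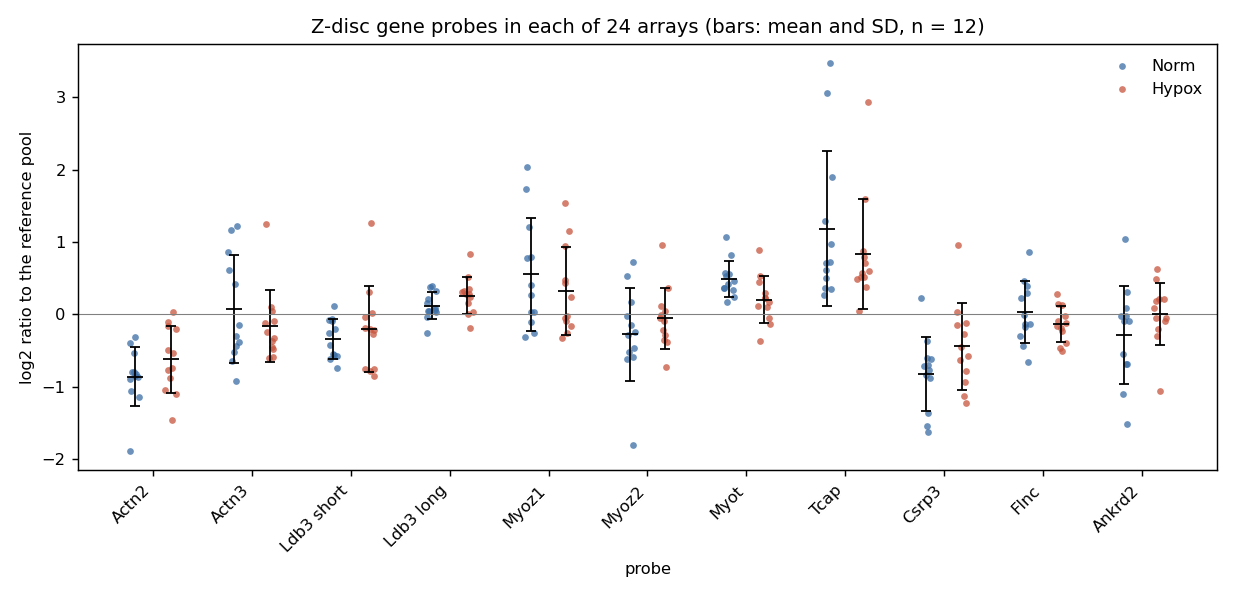
Log2 ratio to the reference pool (y axis) of the 11 probes (x axis) in 12 Norm (blue) and 12 Hypox (red) arrays, with points for arrays and black bars for the mean and SD of a group. The ranges of the groups overlap for every probe, and *Tcap* and *Myoz1* are the most spread.

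Of the proteins that crosslink or bundle actin, *Actn2* encodes the alpha-actinin present in all muscle fibres. *Actn2* lay between -1.89 and -0.31 in Norm (median -0.84) and between -1.47 and 0.04 in Hypox (median -0.64). The groups overlapped, although 4 Hypox arrays were above all Norm arrays and the lowest value of all belonged to the mouse Norm 5. Means were -0.86 ± 0.41 and -0.62 ± 0.46, respectively. The difference of 0.24 (SE 0.16, 1.18-fold) did not pass (limma, p = 0.157, adjusted p = 0.541), and its 95% interval ran from -0.10 to 0.58. Without Norm 5 it was 0.15.

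*Actn3* encodes the alpha-actinin of fast glycolytic fibres. It ranged from -0.92 to 1.22 in Norm (median -0.23) and from -0.61 to 1.24 in Hypox (median -0.29). Only 1 Hypox array, Hypox 4 at 1.24, was above all Norm arrays, and that array shares slide 1 with Norm 4 (1.22) and Norm 11 (1.16). With a mean of 0.08 ± 0.74 in Norm and -0.16 ± 0.50 in Hypox, the difference was -0.23 (SE 0.24, limma, p = 0.328, adjusted p = 0.692). Without Norm 4, Norm 11 or Hypox 4 it was -0.13, -0.14 or -0.36, and slides accounted for 58.7% of the variance within groups. The sign depended on the scaling, since the difference was 0.021 from the Cy5 channel alone and 0.026 from the scanner software's processed signals.

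*Flnc* encodes filamin C, which binds actin, myotilin and membrane proteins. Its ratios lay between -0.66 and 0.87 in Norm (median -0.07) and between -0.51 and 0.28 in Hypox (median -0.14). All 12 Hypox values fell inside the Norm range, and the Norm spread (SD 0.429) was wider than that in Hypox (SD 0.245). The difference of -0.17 (SE 0.13) did not pass (limma, p = 0.224), with 5 of 6 slides lower in Hypox, and it was -0.09 without Norm 11.

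*Ldb3* encodes ZASP, also called Cypher, a PDZ protein that binds alpha-actinin. It has 2 probes for different transcripts, 1 for the short forms (matched to 2 RefSeq transcripts) and 1 for the long forms (matched to 4). The short-form probe ranged from -0.75 to 0.11 in Norm (median -0.34) and from -0.85 to 1.27 in Hypox (median -0.20). In Hypox, 4 arrays were below all Norm arrays and 2 above them, so the Hypox SD of 0.592 was larger than that of 0.276 in Norm. The long-form probe ranged from -0.25 to 0.39 in Norm (median 0.07) and from -0.19 to 0.83 in Hypox (median 0.28). For this probe 9 of 12 Hypox arrays were above the Norm median. The difference was 0.13 (SE 0.17, limma, p = 0.447) for the short and 0.14 (SE 0.093, limma, p = 0.138) for the long forms, and the latter passed when Hypox 2 was left out (0.18, p = 0.0462), whereas it was 0.09 without Hypox 5. For the short forms the difference was 0.00067 without Hypox 2 and 0.09 without Hypox 4. Per array, the short-form minus the long-form ratio averaged -0.46 ± 0.25 under normoxia and -0.47 ± 0.75 under hypoxia, a difference of -0.01 (2-sided permutation test, p = 0.980). The array Hypox 2 stood apart here, with 1.27 for the short and -0.19 for the long forms.

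Calsarcins are small proteins that link alpha-actinin to calcineurin. *Myoz1* encodes the calsarcin of fast fibres, also called FATZ. It ranged from -0.32 to 2.04 in Norm (median 0.34) and from -0.33 to 1.54 in Hypox (median 0.11). The highest values, Norm 11 (2.04), Norm 4 (1.73), Hypox 4 (1.54), came from slide 1, and slides accounted for 73.7% of the variance within groups. The mean was 0.55 ± 0.78 in Norm and 0.32 ± 0.61 in Hypox, and the difference of -0.23 (SE 0.26) did not pass (limma, p = 0.384). It was -0.12 without Norm 4, -0.09 without Norm 11 and 0.061 from the Cy5 channel alone.

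*Myoz2*, the calsarcin of slow fibres and heart, ranged from -1.80 to 0.72 in Norm (median -0.26) and from -0.73 to 0.96 in Hypox (median -0.07). The 2 calsarcins thus differed in the sign of their means, but neither difference exceeded the spread. For *Myoz2* it was 0.22 (SE 0.20, limma, p = 0.285), 0.08 without Norm 5, the lowest array, and 0.13 without Hypox 12, the highest. Of calcineurin and its partners, 0 of 9 genes passed as higher and 1 as lower, beside 7.48% and 6.57% of all probes. This was *Nfatc1*, a transcription factor activated by calcineurin, with a difference of -0.26 (SE 0.10, limma, p = 0.0159, adjusted p = 0.231). *Rcan2*, an inhibitor of calcineurin, had the smallest P-value among those with a positive difference (0.11, p = 0.194). The catalytic subunits *Ppp3ca* (-0.01) and *Ppp3cb* (0.02) were close to 0.

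*Myot* was the only member below P < 0.05. It encodes myotilin, an immunoglobulin-domain protein that binds alpha-actinin, filamin C and actin. In Norm the 12 arrays lay between 0.17 and 1.07 (median 0.44), all above 0. In Hypox they lay between -0.36 and 0.89 (median 0.20). The groups overlapped, yet 6 of 12 Hypox arrays were below every Norm array and 9 were below the Norm median. The mean of 0.49 ± 0.25 in normoxic mice fell to 0.20 ± 0.32, a difference of -0.29 (SE 0.11, 0.819-fold, 95% interval -0.52 to -0.05, limma, p = 0.0178, adjusted p = 0.240). In the order of P-values it was number 1062 of 14312 probes. With slide as a block the P-value was 0.0132, and Hypox was lower on 5 of 6 slides, with within-slide differences from -0.64 on slide 1 to 0.13 on slide 2. Leaving out any single array kept it below 0.05, with values from -0.24 to -0.35. It did not pass without slide 1 (-0.22, p = 0.0688) or from the Cy5 channel alone (-0.20, p = 0.123), and it turned to 0.32 with median centring in place of loess and to 0.13 in the deposited values, neither of which passed.

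**Figure D2:**
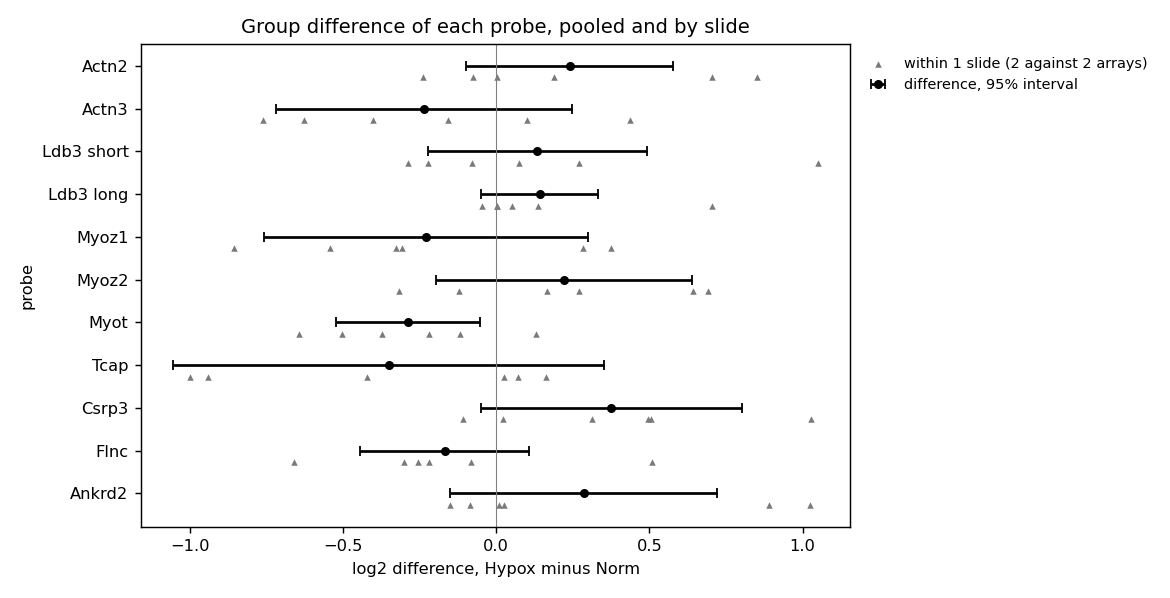
Log2 difference, Hypox minus Norm (x axis), of the 11 probes (y axis), with black points and bars for the pooled difference and its 95% interval (12 against 12 arrays) and grey triangles for the 6 within-slide differences. The interval excludes 0 for *Myot* only, and the within-slide values lie on both sides of 0 for every probe.

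*Tcap* encodes telethonin, the cap that joins the ends of a pair of titin molecules at the Z-disc. It had the largest spread, from 0.27 to 3.47 in Norm (median 0.72) and from 0.05 to 2.93 in Hypox (median 0.59). The arrays Norm 4 (3.47), Norm 11 (3.05), Hypox 4 (2.93) all lay on slide 1, the dimmest slide, and slides accounted for 84.3% of the variance within groups. The difference of -0.35 (SE 0.34) did not pass (limma, p = 0.315, adjusted p = 0.683). With slide as a block the SE was 0.154 and the P-value 0.0327 (adjusted 0.264), which made 2 of 11 members that passed in that fit, beside 16.0% of all probes. Within slides the sign was split 3 to 3, from -0.999 on slide 1 to 0.16 on slide 2. The pooled difference was -0.14 without Norm 4, -0.18 without Norm 11 and -0.54 without Hypox 4, and it was -0.02 in the processed signals and -0.01 in the Cy5 channel alone.

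*Csrp3* and *Ankrd2*, whose proteins are known as load sensors, had the largest positive differences in the loess ratios. Neither passed (SE 0.21 for both), and their order beside *Actn2* (0.24) and *Myoz2* (0.22) is not settled. *Csrp3* encodes muscle LIM protein, which binds telethonin and alpha-actinin and can enter the nucleus. It ranged from -1.62 to 0.22 in Norm (median -0.75) and from -1.23 to 0.96 in Hypox (median -0.51). The groups overlapped, with 1 Hypox array, Hypox 11 (0.96), above all Norm arrays and 8 above the Norm median. The mean was -0.82 ± 0.51 in Norm and -0.44 ± 0.60 in Hypox, a difference of 0.38 (SE 0.21, 1.30-fold, 95% interval -0.05 to 0.80). It did not pass (limma, p = 0.0816, adjusted p = 0.424), although Hypox was higher on 5 of 6 slides. Without slide 1 it was 0.47 (p = 0.0387), and it also passed without Norm 11 (0.47, p = 0.0246), Hypox 1 (0.45, p = 0.0393) or Hypox 2 (0.44, p = 0.0438), while it was 0.25 without Hypox 11 (p = 0.182).

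*Ankrd2* encodes a muscle ankyrin repeat protein of slow fibres that shuttles between the sarcomere and the nucleus. Its ratios lay between -1.52 and 1.04 in Norm (median -0.10) and between -1.06 and 0.63 in Hypox (median 0.02). All but Hypox 1 (-1.06) of the Hypox arrays were above -0.30, while 5 Norm arrays were below it. The difference of 0.29 (SE 0.21) did not pass (limma, p = 0.190), and it was 0.17 without Norm 5 and 0.40 without Norm 11 (p = 0.0425). Its relative *Ankrd1*, known to rise in stressed muscle, was measured at 3.59 times the background and was higher in Hypox by 0.25 (SE 0.12, limma, p = 0.0362, adjusted p = 0.314), on 5 of 6 slides. Of all probes, 7.48% passed as higher. Another relative, *Ankrd23*, was brighter, at 136 times the background, and its difference was 0.004 (limma, p = 0.981).

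Probe brightness moved with the difference at the bright end of the scale, over all probes as well as over the members. The 3 members with a Cy5 signal over 300 times the local background, *Actn3* (566), *Myoz1* (748) and *Tcap* (2376), were all lower in Hypox in the loess ratios, though not in the 2 scalings named above. Among all 446 probes of that brightness, 83.9% were lower, with a median difference of -0.19. *Myot* (273) lay among 775 probes between 100 and 300 times the background, of which 57.0% were lower (median -0.04) and 9.03% passed as lower. *Csrp3* (20.2), *Myoz2* (37.5), *Ankrd2* (49.8) and *Actn2* (68.9), all with positive differences, lay among dimmer probes, whose median differences were 0.03 below and 0.02 above 30 times the background. At like brightness the signs also differed, since *Flnc* (66.6) was at -0.17 beside *Actn2*, and the short-form probe of *Ldb3* (129) was at 0.13 in the range of *Myot*. Whether brightness had a part in the members' differences was not tested.

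**Figure D3:**
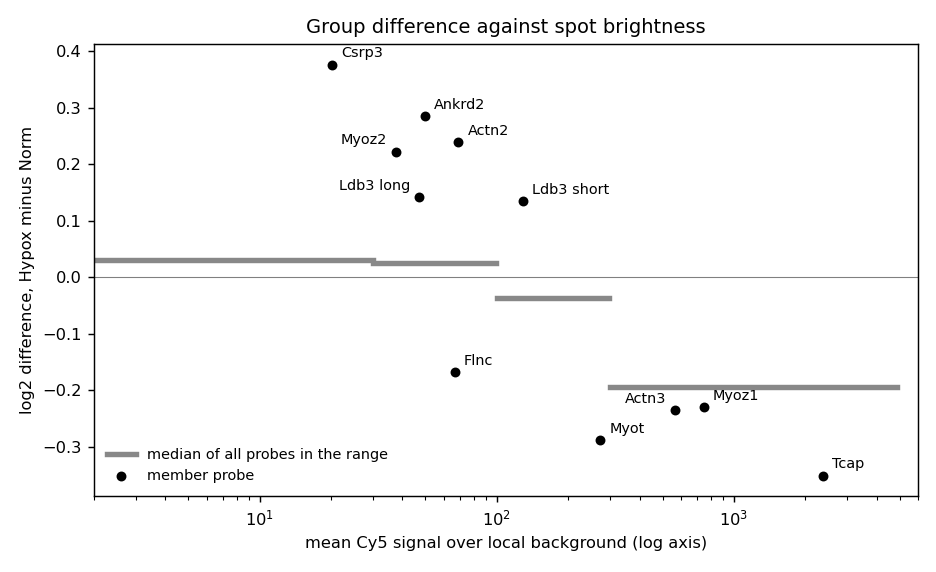
Log2 difference, Hypox minus Norm (y axis), of the 11 probes against mean Cy5 signal over local background (x axis, log scale), with grey lines for the median difference of all probes tested in 4 ranges of brightness. The line falls to -0.19 above 300 times the background, where *Actn3*, *Myoz1* and *Tcap* lie at -0.23, -0.23 and -0.35.

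Related genes were read from lists. Of 26 further Z-disc genes, 25 were tested, with 16 positive and 9 negative differences and a median of 0.03. *Neb*, which encodes nebulin, the ruler along the actin filament, fell by 1.12 (SE 0.19, limma, p = 2.96e-06, adjusted p = 0.0106), on 6 of 6 slides, and was the only pass of that list. *Capza2*, a subunit of the actin capping protein at the Z-disc, had the smallest P-value among the positive differences (0.25, p = 0.105). Of the third calsarcin, *Myoz3*, the difference was 0.07 (p = 0.698). Among 8 family members, 7 were tested and *Ankrd1* alone passed, while *Actn4*, a non-muscle alpha-actinin, was at -0.17 (p = 0.0780). The M-band is the middle of the sarcomere, where myomesins crosslink myosin, and its list also held genes of other proteins. None of 6 tested genes of that list passed, with *Smpx* (-0.26, p = 0.0501) and *Myom3* (0.18, p = 0.290) closest to the threshold on the 2 sides of 0. With slide as a block, however, *Myom2* (-0.37, p = 0.00866), a myomesin of fast fibres, and *Cmya5* (-0.33, p = 0.0183), myospryn, passed as lower. In that fit 16.0% of all probes passed in either direction. Over the 6 lists, fibre genes included, 7 of 65 genes passed, beside the 14.1% of all probes. The number was 0 with median centring (0.412% of all probes), 12 with slide as a block (16.0%) and 14 without Hypox 4 (14.8%).

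Slow and fast fibre genes were taken as a measure of fibre make-up, since a piece of muscle with more slow fibres would differ in several members. All 9 slow fibre genes were higher in Hypox, beside 56.7% of all probes, with a median difference of 0.34. Of them 3 passed without adjustment, beside 7.48% of all probes that passed as higher and 6.57% as lower. These were *Tnni1* (0.61, p = 0.000935), *Casq2* (0.27, p = 0.0113) and *Tnnc1* (0.44, p = 0.0227), which encode slow troponin I, the slow calsequestrin and slow troponin C. Of 9 fast fibre genes, 6 were lower and 3 higher, and *Mylpf*, the fast regulatory light chain, passed as higher (0.36, p = 0.000941), while *Myh1*, a fast myosin, was at -0.26 (p = 0.0951). With slide as a block most fast genes that passed were lower, namely *Myh1* (p = 0.0101), *Myh4* (-0.59, p = 0.00346), another fast myosin, and *Pvalb* (-0.48, p = 0.0163), parvalbumin, while *Mylpf* again passed as higher (p = 0.00153). Of all probes, 16.0% passed in that fit. *Myh1* (420), *Myh4* (2306) and *Pvalb* (2644) lay over 300 times the local background, where 83.9% of all probes were lower without the block, and *Mylpf* lay at 16.4. Without the block, none of these slow or fast fibre genes passed after adjustment. The slow minus fast index per array, the mean ratio of the former minus that of the latter, averaged -0.998 ± 0.862 for normoxic and -0.506 ± 0.451 for hypoxic mice. Norm ranged from -2.79 (Norm 5) to 0.60 (Norm 12) and enclosed the whole Hypox range of -1.81 to -0.09. Slow fibre genes thus moved with the group in the same direction as *Csrp3*, *Ankrd2*, *Myoz2* and *Actn2*, and their part in those differences was not tested. The probes of slow genes lay between 3.58 and 612 times the local background and those of fast genes between 16.4 and 3892. On slide 1, the dimmest, the index was -1.92 (Norm 4), -1.85 (Norm 11), -1.81 (Hypox 4) and -0.58 (Hypox 12). The part of brightness and slide in the index was not tested.

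Across the 24 arrays, with group means removed, *Actn3* was lower in muscles with a higher slow minus fast index (Pearson r = -0.79, Spearman rho = -0.79, permutation, adjusted p = 0.0002 and 0.0001 over 10 genes). The same held for *Myoz1* (r = -0.67, adjusted p = 0.0015; rho = -0.78, adjusted p = 0.0001) and *Tcap* (r = -0.60, adjusted p = 0.00967; rho = -0.61, adjusted p = 0.00645). Without the 2 arrays farthest from the median index, r was -0.72, -0.72 and -0.77. With slide means removed as well, *Actn3* (r = -0.67, adjusted p = 0.0140 by permutation within slides) and *Myoz1* (r = -0.51, adjusted p = 0.0200) still passed, *Tcap* did not (r = -0.23, adjusted p = 0.345), and *Myoz2* was positively related (r = 0.69, adjusted p = 0.0200, rho = 0.47, and r = 0.53 without the 2 farthest arrays). Before slide means were removed, *Myoz2* had r = 0.23 and rho = -0.03 (adjusted p = 0.334 and 0.886), and r turned to -0.33 without the 2 farthest arrays. From the Cy5 channel alone, an alternative chosen after seeing the data, r was -0.37 for *Actn3*, 0.035 for *Myoz1* and 0.38 for *Tcap*, none of which passed. In that channel it was 0.63 for *Myoz2*, 0.55 for *Ankrd2* and 0.52 for *Actn2*, each with an adjusted p of 0.0333 by permutation. In the loess ratios *Ankrd2* (r = 0.31) and *Actn2* (r = 0.32) did not pass (permutation, adjusted p = 0.2 for both). With slide means removed they did not pass either (adjusted p = 0.184 for both, permutation within slides). For *Ldb3*, rho was -0.59 (adjusted p = 0.00645) but r was -0.37 (adjusted p = 0.166), and for *Myot*, *Csrp3*, *Flnc*, *Actn2* and *Ankrd2* neither passed in the loess ratios. *Actn3*, *Myoz1* and *Tcap* were also the 3 members over 300 times the local background, and the part of brightness in these correlations was not tested.

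**Figure D4:**
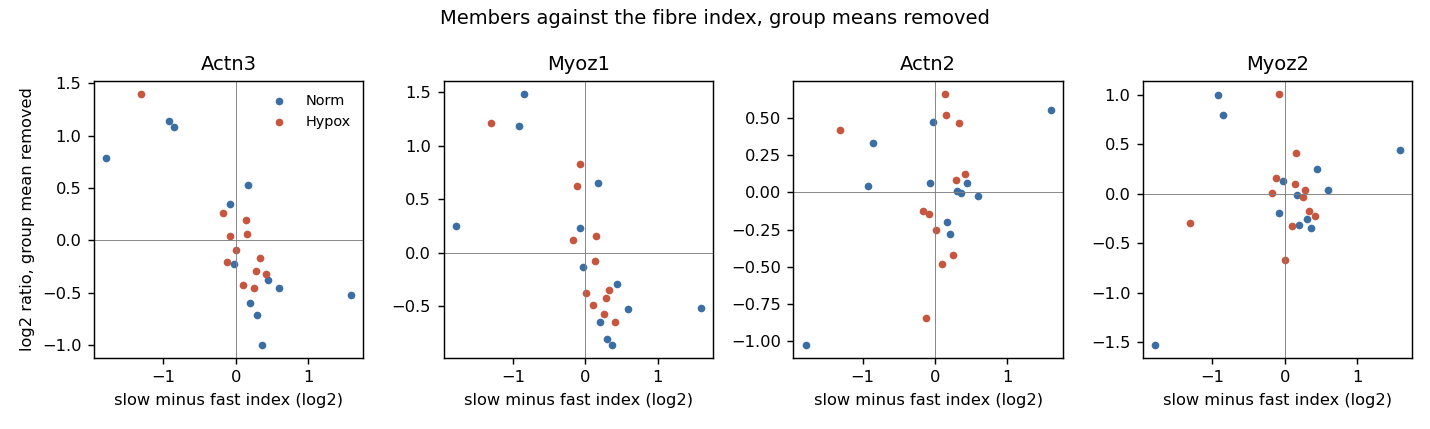
Log2 ratio of *Actn3*, *Myoz1*, *Actn2* and *Myoz2* (y axes) against the slow minus fast index (x axes, log2), both as deviations from the group mean, in 12 Norm (blue) and 12 Hypox (red) arrays. *Actn3* and *Myoz1* decline over the index, with r = -0.79 and -0.67, and the leftmost array is Norm 5.

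The mouse Norm 5 had the lowest index of all arrays and the lowest ratios of all arrays for *Actn2* (-1.89), *Myoz2* (-1.80), *Csrp3* (-1.62) and *Ankrd2* (-1.52). In the same muscle, *Actn3* (0.87) and *Myoz1* (0.80) were above the Norm median, while *Tcap* (0.61) was below its Norm median of 0.72. In Hypox, the mouse Hypox 1 was the lowest of its group for *Myoz2* (-0.73), *Csrp3* (-1.23) and *Ankrd2* (-1.06).

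Members were also compared with each other over the 24 arrays, as deviations from group and slide means. Of 55 pairs of probes, 40 had r above 0 (median 0.283), and 6 passed after adjustment over all pairs (permutation within slides). The pairs were *Ldb3* long with *Flnc* (r = 0.83, rho = 0.86, both adjusted p = 0.0055), *Csrp3* with *Ankrd2* (r = 0.81, adjusted p = 0.0088; rho = 0.63, adjusted p = 0.0638), *Actn3* with *Myoz1* (r = 0.76, adjusted p = 0.0088; rho = 0.80, adjusted p = 0.00825), *Ldb3* long with *Myot* (r = 0.76, adjusted p = 0.0385; rho = 0.62, adjusted p = 0.0770), *Ldb3* short with *Myoz1* (r = 0.71, adjusted p = 0.0088; rho = 0.71, adjusted p = 0.0110) and *Actn2* with *Ankrd2* (r = 0.64, adjusted p = 0.0088; rho = 0.68, adjusted p = 0.0261). Without the 2 arrays farthest from the median of the first gene, r was between 0.59 and 0.76 for these pairs. From the Cy5 channel alone it was 0.88, 0.82, 0.51, 0.76, 0.30 and 0.64 in the same order. The short-form and long-form probes of *Ldb3* had an r of -0.27 (adjusted p = 0.462), and -0.04 without the 2 farthest arrays. The points share the reference pool and the slides, and both genes of a pair were read from the same hybridisation.

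**Figure D5:**
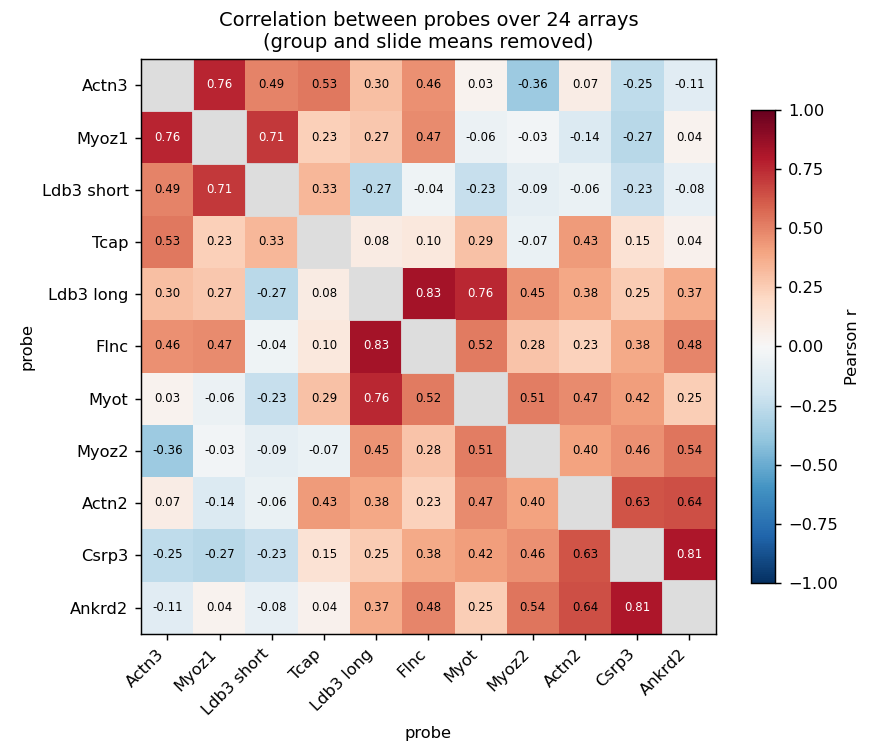
Pearson r between the 11 probes (both axes) over 24 arrays, with group and slide means removed, from -1 (blue) to 1 (red). *Actn3* and *Myoz1* (0.76) stand in the upper left and *Actn2*, *Csrp3* and *Ankrd2* (0.63 to 0.81) in the lower right, with values between -0.27 and 0.07 where these groups cross.

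The promoters of *Csrp3* and *Ankrd2* are shown since these genes were correlated between mice. RefSeq windows were found for 6 of the 10 members, and 250 bases before the start are printed, 5′ to 3′ on the gene's strand, in GRCm38.p6 coordinates, which are not those of the probes. The capitals mark the E-box, CANNTG, the site of myogenic factors such as MyoD, which reads the same on both strands. *Csrp3* has 2 windows with 4 E-boxes each, of which 1 window is printed, and the window of *Ankrd2* holds 3. At least 1 E-box is in 66.2% of 32851 such windows, and the share with as many as 3 or 4 was not counted.
Csrp3, chr7:48848052-48848301, minus strand: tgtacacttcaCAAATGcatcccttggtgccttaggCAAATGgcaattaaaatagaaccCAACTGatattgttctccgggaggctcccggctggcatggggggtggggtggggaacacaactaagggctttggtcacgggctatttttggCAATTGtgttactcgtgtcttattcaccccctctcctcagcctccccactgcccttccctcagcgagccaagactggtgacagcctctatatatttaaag
Ankrd2, chr19:42035777-42036026, plus strand: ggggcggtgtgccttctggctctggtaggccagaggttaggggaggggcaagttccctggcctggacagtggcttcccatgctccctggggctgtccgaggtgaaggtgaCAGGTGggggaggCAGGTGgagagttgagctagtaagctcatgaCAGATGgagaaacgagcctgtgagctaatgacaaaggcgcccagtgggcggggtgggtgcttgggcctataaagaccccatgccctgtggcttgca

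The M-CAT element, CATTCC on either strand, was in none of these windows and is in 12.6% of all windows. The consensus of MEF2, searched on both strands, is in 2.9% of all windows and occurred in that of *Myoz2*, 33 bases before the start. These are matches of letters only.

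The 2 genes with the most similar pattern to each member over the 24 arrays, out of 9022 named genes with a value on every array, were found by Pearson r of the deviations from group and slide means. For *Actn2* they were *Cox8a* (0.91), a subunit of cytochrome c oxidase, and *Vgll2* (0.85). For *Actn3* they were *Dennd4a* (0.92) and *Spag7* (0.90), and for *Myoz1* *Gm6981* (0.95) and *Eif4g1* (0.91), a scaffold of translation initiation. *Tcap* was nearest to *Gapdh* (0.89), the glycolytic enzyme, and *Slc25a4* (0.89), the ADP/ATP carrier of muscle mitochondria. *Csrp3* and *Ankrd2* had the same nearest gene, *Mrpl34* (0.85 and 0.81), a mitochondrial ribosomal protein, followed by *Tubb6* (0.80) and *Hdgfrp2* (0.78). The short-form probe of *Ldb3* went with *Mpv17l2* (0.95) and *Sepw1* (0.93), and *Myoz2* with *Fermt2* (0.86) and *Nceh1* (0.85). *Myot* was nearest to *Fam96b* (0.92) and *Mapk9* (0.90), and *Flnc* to *Tbc1d10b* (0.80) and *Ufsp1* (0.79).

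Markers of other cells in the muscle moved with the groups in places. Over all probes, 6.57% passed as lower and 7.48% as higher (limma, without adjustment). Of 4 fibroblast markers, *Col1a2* (-0.40, p = 0.0145) and *Dcn* (-0.37, p = 0.0299) were lower, while *Col1a1* (0.11, p = 0.624) and *Pdgfra* (-0.0008, p = 0.991) did not pass. The mean of that list lay between -0.49 and 0.48 in Norm and between -0.54 and 0.34 in Hypox. The adipocyte marker *Adipoq* was lower (-0.33, p = 0.0315), while *Cidec* (-0.12, p = 0.444) and *Fabp4* (-0.08, p = 0.486) did not pass. Among 4 endothelial markers, 2 were measured, *Cdh5*, which was higher (0.38, p = 0.00552), and *Kdr*, at -0.15 (p = 0.237). Of 4 lung markers only *Sftpc* was measured, at 3.42 times the background, and it was higher (0.81, p = 0.0157). None of 4 smooth muscle, 3 red blood cell, 4 macrophage or 3 cardiac markers passed among those measured. Of 6 muscle fibre markers, *Ttn*, which encodes titin, was lower (-0.75, p = 0.000103) and the other 5 did not pass. With slide as a block, *Myh4* and *Pygm* (-0.40, p = 0.0235), muscle glycogen phosphorylase, passed as lower, beside 16.0% of all probes that passed in either direction. The part of these cells in the members' differences was not tested.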

How the data were processed

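Total RNA of *M. gastrocnemius* of 12 Norm and 12 Hypox mice was measured on 24 Agilent arrays. Spot intensities were deposited by the authors as scanner output (Agilent Feature Extraction 10.7.3.1, per the submitters' processing notes; probe coordinates in mm9), not normalized between arrays. The authors also deposited log2 values that they had normalized (GeneMaths XT, per the study's methods). Each column of these has a median of 6.58, and their centring and use of the Cy3 channel are not known. Which dye marked the muscle was read from the descriptions, because several Hypox dye labels carry a different dye name.

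Spots of controls and 7260 flagged readings were dropped (0 saturated). Mean signals were corrected with normexp (offset 50), log2 Cy5/Cy3 ratios were normalized by loess within arrays, and spots of a probe were averaged. Tests took probes whose Cy5 signal averaged more than 2 local backgrounds and that lacked a value on no more than 4 arrays (14312 of 55681) with limma's moderated test, without a block, at the study's threshold of P < 0.05, and with Benjamini-Hochberg adjustment over all of them. The brightest probe stood for a gene in the lists and correlations. Permutations numbered 100000, or 10000 within slides and for alternatives, and the smallest P-value that 10000 can give is 0.0001.

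The members and lists were chosen with earlier results of these data known. The genes named are all members, for each list the top gene by P-value on either side of 0 with at most 3 further genes that passed, and the 2 genes most like each member. *Ppp3ca*, *Ppp3cb*, *Myoz3*, *Ankrd23*, the markers and the genes that passed only with slide as a block were named besides, after their values were seen. The result of 1 marker list is not reported here. Symbols were matched to RefSeq (GRCm38.p6). The labels do not say how replicate numbers were given, and same-numbered arrays correlated between -0.22 and 0.54 with 3 of 12 pairs over 0.1, so they were not treated as pairs. Alternatives were other background corrections and scalings, the methods' t-test, the Cy5 channel by itself, the deposited log2 values, other filters, blocks, array weights and leaving out arrays. Computations ran in R 4.3.3 with limma 3.58.1 and data.table (version 1.17.8), sequences were read with Python 3.11.15, and figures drawn there with matplotlib 3.10.9, pandas 2.3.3 and numpy 2.4.6, and limma's fit was tested on simulated data.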

Additional observations from a re-analysis of the deposited data

How the results depend on the processing

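Of 154 member differences under alternatives other than single arrays, 129 kept their direction and their side of the threshold. With median centring in place of loess, all probes shifted by a median of 0.24, and *Actn3* (0.47), *Myoz1* (0.48), *Tcap* (0.48), *Myot* (0.32) and *Flnc* (0.32) turned positive; relative to that shift they were at 0.23, 0.24, 0.24, 0.08 and 0.07. In the deposited values, by either test, they were at 0.29, 0.30, 0.29, 0.13 and 0.14. *Actn3* was at 0.026 in the processed signals and 0.021 in the Cy5 channel alone, *Myoz1* at 0.061 in the latter, and *Myot* at 0.13 within slide 2. The cause was not tested. The count of 1 member passing became 0 with median centring, in the deposited values by either test and from Cy5 alone, 2 with slide as a block and 2 with a replicate block (*Myot* and *Csrp3*, p = 0.0176), and 3 with array weights (*Myot*, *Actn2*, p = 0.0272, and *Csrp3*, p = 0.0425). Of all probes, 0.412% passed with median centring, 6.37% and 6.63% in the deposited values (limma and the methods' t-test) and 9.38% from Cy5 alone. With slide as a block 16.0% of all probes passed, with a replicate block 14.6% and with array weights 20.7%. Without single arrays the count of members ranged from 1 to 3, and was 3 without Norm 11 or Hypox 2 (14.1% of all probes in either case). The count after adjustment was 0 throughout, also when single arrays were left out (0 to 0). The replicate block changed the side of no other member.

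The 7 of 65 related genes passing became 0 with median centring, beside 0.412% of all probes, and 13 with the Cy5 channel alone, beside 9.38%. In the deposited values 4 passed by limma (6.37% of all probes) and 3 by the methods' t-test (6.63%). With slide as a block 12 passed (16.0% of all probes), and with a replicate block 12 (14.6%). With array weights it was 13 (20.7% of all probes), and without slide 1 it was 11 (16.0%). Without single arrays the related genes passing numbered 6 to 14, with 11 without Norm 12 (15.3% of all probes) and 14 without Hypox 4 (14.8%). The *Ldb3* probe difference was 0.093 with median centring and 0.11 in the deposited values. The 3 members related to the fibre index became 0 in the deposited values. Correlations that changed sign were those of *Myoz2* (-0.33) without the 2 farthest arrays, *Myot* with slide means removed (0.11) and, in the Cy5 channel alone, an alternative chosen after seeing the data, *Myot* (0.26), *Myoz1* (0.035) and *Tcap* (0.38).

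Over all probes, 2011 passed without and 143 after adjustment. The first count was 59 with median centring, 911 and 948 in the deposited values and 4487 of 55681 without the filter. The second was 0, 1 and 0, and 45 in the same settings, 217 in the processed signals, 75 in the Cy5 channel alone, 89 by the methods' t-test, 697 with array weights, and 51 to 238 without single arrays. The share of spots well above background ran from 9.42% to 37.8% over the arrays, and whether this limited precision was not tested.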
